A study of Komagataella pastoris with 60 samples.

Results

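The *rps7*∆ strain of *Pichia pastoris* was compared with its wild type (wt) in total mRNA. The members were the mRNA libraries labelled with one of these genotypes, 6 of *rps7*∆ and 6 of wt, which makes 12 of the 30 mRNA libraries and of the 60 libraries of the series. Each strain was sampled at 24, 48 and 72 h of growth in methanol medium, with 2 libraries per strain and time, which the methods call biological replicates. *P. pastoris* is a methylotrophic yeast used for making recombinant proteins. Both strains were of the GS115 background and carried a bacterial phytase gene (Phy) behind the methanol-induced *AOX1* promoter, put in as a single copy. In *rps7*∆ the *RPS7* gene had been removed by homologous recombination with a resistance marker that was afterwards cut out by Cre, whereas wt kept the gene. The sources do not say how many independent clones stand behind each strain, and any other difference between the 2 strains cannot be told apart from the deletion. All cultures were treated with cycloheximide, which stalls ribosomes on the mRNA, and with the wall-digesting enzyme lyticase before total RNA was taken and polyA+ mRNA selected.

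Rps7 is a protein of the small (40S) ribosomal subunit and in *Saccharomyces cerevisiae* takes part in the assembly of that subunit and in the maturation of its rRNA. A yeast ribosome is built from rRNA and one copy of nearly every ribosomal protein (RP), those of the small subunit being encoded by *RPS* genes and those of the large (60S) subunit by *RPL* genes. The acidic stalk proteins of the large subunit are encoded by *RPP* genes. In growing budding yeast the RP genes are transcribed together as a regulon that follows growth and nutrients. The comparison asks how the mRNA of the host differed between a strain without Rps7 and its parent while Phy was being made.

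The 12 libraries held 3404340 to 10784118 reads on host genes. The 2 libraries of a strain and time had a median absolute log2 difference of 0.0817 to 0.118 across genes, against 0.498 to 0.571 between *rps7*∆ and wt at the same time. The counts of every pair differed by more than sampling noise, with a chi-square per degree of freedom of at least 2.38, so each library was counted on its own. *RPS7* had between 2 and 16 reads in each *rps7*∆ library, against 1967 to 6316 reads in each wt library. In TMM-scaled CPM, which are counts per 1e+06 reads after scaling by the trimmed mean of M-values, this is 0.197 to 1.94 in *rps7*∆ and 366 to 692 in wt. The labels of all 12 libraries were therefore borne out by the deleted gene. The 3 genes deleted in the other strains of the series, *RPL38*, *RPL9A* and *RPS25*, were present in *rps7*∆, where their lowest levels were 4.74, 35.5 and 35.3 CPM.

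The difference between the strains extended over most of the transcriptome. Averaged over the 3 times, 2142 of the 5229 genes tested (41.0%) were higher in *rps7*∆ and 1929 (36.9%) were lower. A gene was called when its p from edgeR's quasi-likelihood test, adjusted by Benjamini-Hochberg, was under 0.05, here and throughout. At 24 h 1723 genes (33.0%) rose and 1570 fell, at 48 h 1815 (34.7%) rose and 1684 fell, and at 72 h 1786 (34.2%) rose and 1705 fell. A change of at least 2-fold in addition was found for 433 higher (8.28%) and 541 lower (10.3%) genes on average. At every time 793 genes rose and 804 fell, and 129 genes were higher at 24 h and lower at both later times.

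These directions depend on how the libraries are scaled. The 10 most abundant host genes took a smaller share of reads in *rps7*∆ than in wt. It was 8.74 and 8.95% in *rps7*∆ and 13.0 and 13.1% in wt at 24 h, 6.08 and 6.28% in *rps7*∆ and 13.1 and 13.2% in wt at 48 h, and 9.62 and 9.72% in *rps7*∆ and 10.8 and 11.3% in wt at 72 h. TMM centres the median gene near 0. Scaling by library size alone instead moved the log2 fold changes up by a median of 0.24 at 24 h, 0.72 at 48 h and 0.47 at 72 h, and made 3542 genes higher and 934 lower on average. All fold changes below are TMM-scaled and relative to the bulk of the genes, and a change of sign under library size is given beside the value. Since these are bulk cultures, fewer cells of a kind and less RNA per cell cannot be told apart.

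The most abundant genes were lower in *rps7*∆. Among the genes outside the RP and chaperone lists, the median averaged log2 fold change was 0.36 for 1718 genes under 50 CPM, 0.04 for 2389 genes of 50 to 200 CPM, −0.39 for 697 genes of 200 to 500 CPM and −0.93 for 283 genes over 500 CPM, with the CPM averaged over the 12 libraries. Under library size the median was 0.84, 0.51, 0.09 and −0.45 in these groups, so that only the genes over 500 CPM had a median below 0 on both scales. At 48 h the median of these was −1.31, or −0.60 under library size. The share of genes that fell was 15.5% in the lowest of these groups and 74.6% in the highest.

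Most RP genes were lower in *rps7*∆. Of the 36 *RPS* genes other than *RPS7* (the scaffold gene *ASC1* included), 32 were lower in *rps7*∆ on average and 0 were higher, while 36.9% of all genes tested were lower. Of the 49 *RPL* and *RPP* genes, 47 were lower and 0 were higher. The median averaged log2 fold change was −1.31 over the *RPS* genes and −1.39 over the *RPL* and *RPP* genes, beside 0.05 over all genes tested. Under library size the medians were −0.83 and −0.92, beside 0.53 over all genes. All 12 RP genes with over 500 CPM and all 38 with 200 to 500 CPM fell, with median log2 fold changes of −1.67 and −1.45, which are to be read beside the −0.93 and −0.39 of other genes of those levels.

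The RP difference was small at 24 h and large afterwards. At 24 h 12 of 36 *RPS* genes fell and 0 rose, with a median of −0.32, and 12 of 49 *RPL* and *RPP* genes fell and 3 rose, with a median of −0.26. The share of all genes that fell at that time was 30%. Genes outside the lists of 200 to 500 CPM had a median of −0.27 at 24 h, beside −0.35 for the RP genes of that level. At 48 h 30 *RPS* and 47 *RPL* and *RPP* genes fell, where 32.2% of all genes did, with medians of −1.68 and −1.72. At 72 h 34 and all 49 fell, where 32.6% of all genes did, with medians of −1.98 and −2.12. None of the 85 rose at 48 or 72 h under TMM scaling. Under library size 2 *RPS* genes and 1 *RPL* gene were higher at 48 h and 1 *RPS* gene at 72 h. At 24 h on that scale 5 *RPS* genes were lower and 1 higher, with a median of −0.08. Of the *RPL* and *RPP* genes 8 were lower and 5 higher, with a median of −0.02. Over all genes 19.98% were lower and 45.17% higher at that time and scale, with a median of 0.27. Both RP lists thus had smaller shares of calls than all genes in either direction, most clearly among the higher ones.

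Within a time, both *rps7*∆ libraries lay below both wt libraries for 24 *RPS* and 30 *RPL* and *RPP* genes at 24 h, where 41.9% of all genes tested did. They did so for 35 and 49 at 48 h, where 41.7% of all genes did, and for 35 and 49 at 72 h, where 41.6% did.

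The share of host gene reads on these genes, which is a scaling by library size alone, was also lower in *rps7*∆ at 48 and 72 h. The 36 *RPS* genes held 1.38 and 1.38% of host gene reads in *rps7*∆ and 1.46 and 1.65% in wt at 24 h. At 48 h they held 0.482 and 0.554% in *rps7*∆, against 1.18 and 1.22% in wt. At 72 h they held 0.315 and 0.305% in *rps7*∆, against 1.07 and 0.994% in wt. The 49 large-subunit genes held 1.93 and 1.95% in *rps7*∆ and 1.91 and 2.19% in wt at 24 h, where the libraries of the 2 strains overlapped. They held 0.484 and 0.476% in *rps7*∆ and 1.46 and 1.41% in wt at 72 h. Both strains gave fewer reads to RP genes at 72 h than at 24 h, and the drop was larger in *rps7*∆.

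**Figure D1:**
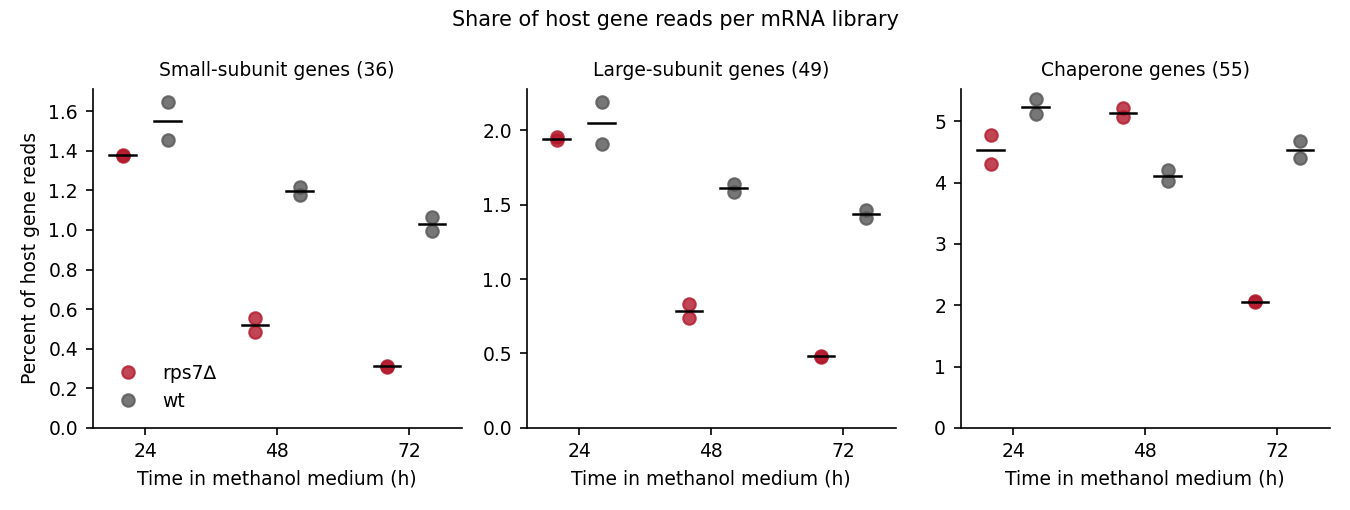
Percent of host gene reads on the 36 small-subunit RP genes without *RPS7* (left), the 49 large-subunit RP genes (middle) and the 55 chaperone genes (right), by hours in methanol medium. Each point is 1 mRNA library, *rps7*∆ in red and wt in grey, and each bar is the mean of 2 libraries. The RP shares of *rps7*∆ lie far below those of wt at 48 and 72 h, and the chaperone share of *rps7*∆ is the higher one at 48 h and the lower one at 72 h.

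The change with time was tested gene by gene. The difference between the strains depended on time for 3146 of 5229 genes (60.2%), and for 31 of 36 *RPS* and all 49 *RPL* and *RPP* genes. From 24 to 48 h the log2 difference became lower for 29 *RPS* and 45 *RPL* and *RPP* genes and higher for 0, where 21.4% of all genes became lower and 16.1% higher. From 24 to 72 h it became lower for 33 and 49, where 25.7% of all genes became lower and 23.3% higher. Between 48 and 72 h, 2 *RPS* and 10 *RPL* and *RPP* genes became lower, where 18% of all genes did. Under library size 14 and 20 did, where 29.1% of all genes did. The small-subunit genes that did not pass the test over all 3 times were *RPS22B*, *RPS27A*, *RPS27B*, *RPS29* and *RPS30*, named after their values were seen. From 24 to 72 h alone the 3 without a call were *RPS22B*, *RPS27A* and *RPS27B*, while *RPS30* changed by −0.59 (adjusted p = 0.034 in edgeR).

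**Figure D2:**
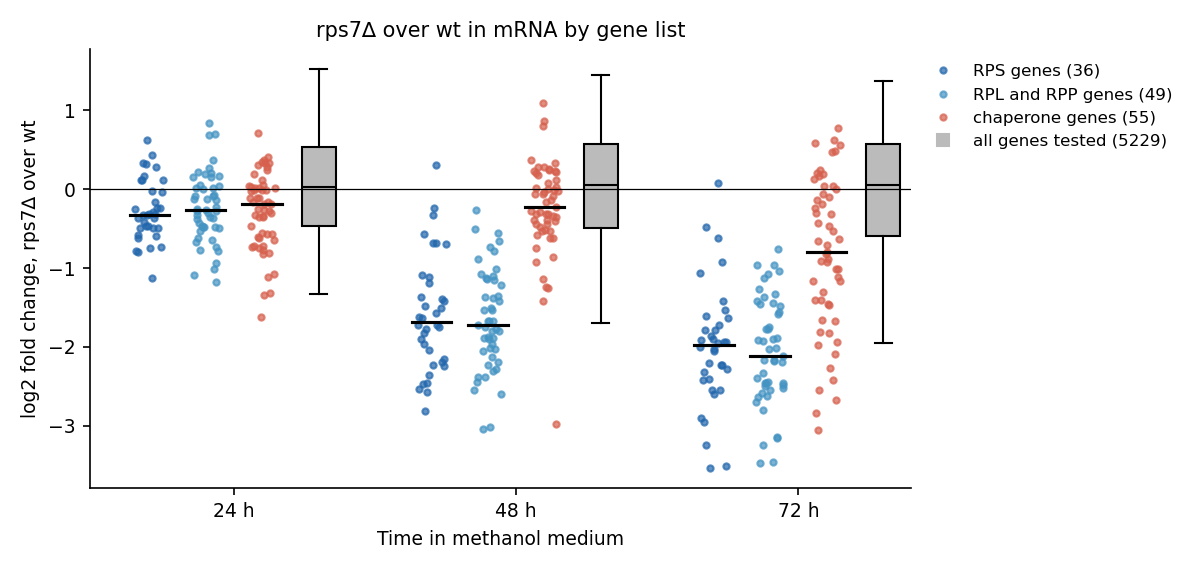
log2 fold change of *rps7*∆ over wt at 24, 48 and 72 h. Points are single genes of the RP and chaperone lists with the list median as a bar, and the grey boxes show all 5229 genes tested (median, quartiles and the 5th to 95th percentile). Both RP lists lie near the bulk at 24 h and have medians of −1.98 and −2.12 at 72 h.

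In the small subunit the 3 lowest genes were *RPS1*, *RPS0* and *RPS3*. Rps1 and Rps0 sit near the mRNA exit of the subunit, and Rps3 at the mRNA entry. *RPS1* had 503 and 478 CPM in *rps7*∆ and 813 and 823 CPM in wt at 24 h. At 48 h it had 111 and 123 CPM in *rps7*∆, against 788 and 852 CPM in wt, and at 72 h 59.2 and 56.4 CPM in *rps7*∆, against 711 and 611 CPM in wt. The *rps7*∆ libraries were below the wt libraries at each time, and the averaged log2 fold change was −2.35 (standard error 0.12, adjusted p = 1.0e-13). *RPS0* differed by −2.24 (standard error 0.12) and *RPS3* by −2.19 (standard error 0.15). At 72 h *RPS0* stood at 8.64% of its wt level.

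At the other end of the small-subunit list were *RPS27B*, *RPS30* and *RPS28B*. *RPS27B*, one of a pair of genes for a zinc-binding protein, had 132 and 105 CPM in *rps7*∆ and 97.0 and 121 CPM in wt at 24 h. It had 62.4 and 62.0 CPM in *rps7*∆ and 52.7 and 64.8 CPM in wt at 72 h. The groups overlapped at both times. At 48 h *RPS27B* had 66.4 and 68.0 CPM in *rps7*∆, above the 55.6 and 53.3 CPM of wt, but without a call. Its averaged log2 fold change was 0.17 (standard error 0.13, adjusted p = 0.26), or 0.64 with a call as higher under library size. *RPS30*, whose protein is made as a fusion with a ubiquitin-like domain in animals, differed by −0.20 (standard error 0.09, adjusted p = 0.047). This call was lost in 7 of the 12 fits that each left out a library, and under library size the sign turned to 0.27. *RPS28B* differed by −0.29 (adjusted p = 0.18), which turned to 0.18 under library size. *RPS27A*, at −0.33 (0.15 under library size), and *RPS29* also had no call on average, and *RPS29* was named after its values were seen.

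In the large subunit the 3 lowest were *RPP0*, *RPL7* and *RPL3*. Rpp0 anchors the stalk that recruits translation factors, and Rpl3 lies near the peptidyl transferase centre. *RPP0* had 408 and 366 CPM in *rps7*∆ and 846 and 808 CPM in wt at 24 h. At 48 h it had 87.3 and 88.5 CPM in *rps7*∆, against 702 and 747 CPM in wt, and at 72 h 49.9 and 46.5 CPM in *rps7*∆, against 583 and 485 CPM in wt. The 6 *rps7*∆ values were all below the 6 wt values, and the averaged log2 fold change was −2.53 (standard error 0.10, adjusted p = 5.6e-15). *RPL7* differed by −2.23 (standard error 0.12) and *RPL3* by −2.08 (standard error 0.12).

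The large-subunit genes that differed least on average were *RPL22*, *RPL37* and *RPL29*. *RPL22* had 157 and 172 CPM in *rps7*∆ and 85.6 and 118 CPM in wt at 24 h, but 33.7 and 30.8 CPM in *rps7*∆ and 66.4 and 67.1 CPM in wt at 72 h. Its log2 difference was 0.69 at 24 h (adjusted p = 0.003) and −1.04 at 72 h (adjusted p = 0.00015), and the average of −0.21 (adjusted p = 0.097) turned to 0.27 under library size. *RPL37* had 0.70 at 24 h and −0.96 at 72 h, and its average of −0.27 turned to 0.20 under library size. These 2 and *RPL39* were the large-subunit genes that rose at 24 h, and *RPL39* was named after its values were seen. *RPL29* fell by 0.54 on the log2 scale (standard error 0.16), a call that was lost under library size.

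**Figure D3:**
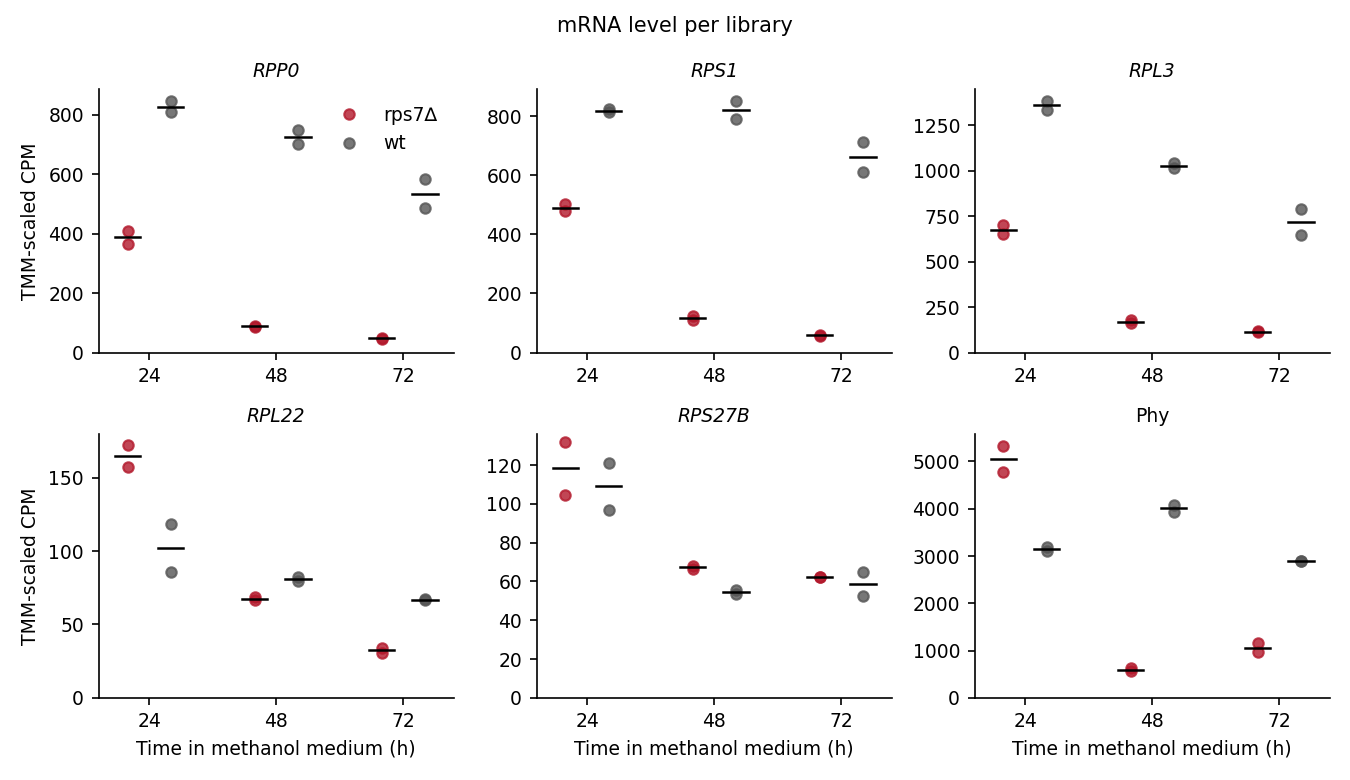
mRNA level in TMM-scaled CPM of 5 RP genes and Phy in each library, by hours in methanol medium, *rps7*∆ in red and wt in grey, with the mean of 2 libraries as a bar. *RPP0*, *RPS1* and *RPL3* were lower in *rps7*∆ at each time, *RPL22* and Phy were higher at 24 h and lower at 72 h, and *RPS27B* overlapped between the strains at 24 and 72 h.

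The RP difference went with gene length. Over the 53 RP genes listed with a single gene entry, the averaged log2 fold change had a Spearman rho of −0.61 with the listed length. It was −0.61 at 24 h, −0.61 at 48 h and −0.47 at 72 h. These genes share the same 12 libraries, and length and mean level went together among them (rho 0.85), so the 2 cannot be told apart. The median averaged log2 fold change was −0.54 for 7 genes of up to 300 bp, −1.20 for 13 genes of over 300 to 400 bp, −1.43 for 17 genes of over 400 to 600 bp and −1.67 for 16 longer genes. Other genes of up to 300 bp had a median of 0.38 (140 genes) and those over 600 bp of 0.02 (4007 genes). Among the 1740 other single-entry genes of up to 1000 bp, 804 (46.2%) were higher and 488 (28.0%) lower, with a median of 0.17, beside 41.0% higher and 36.9% lower over all genes tested.

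**Figure D4:**
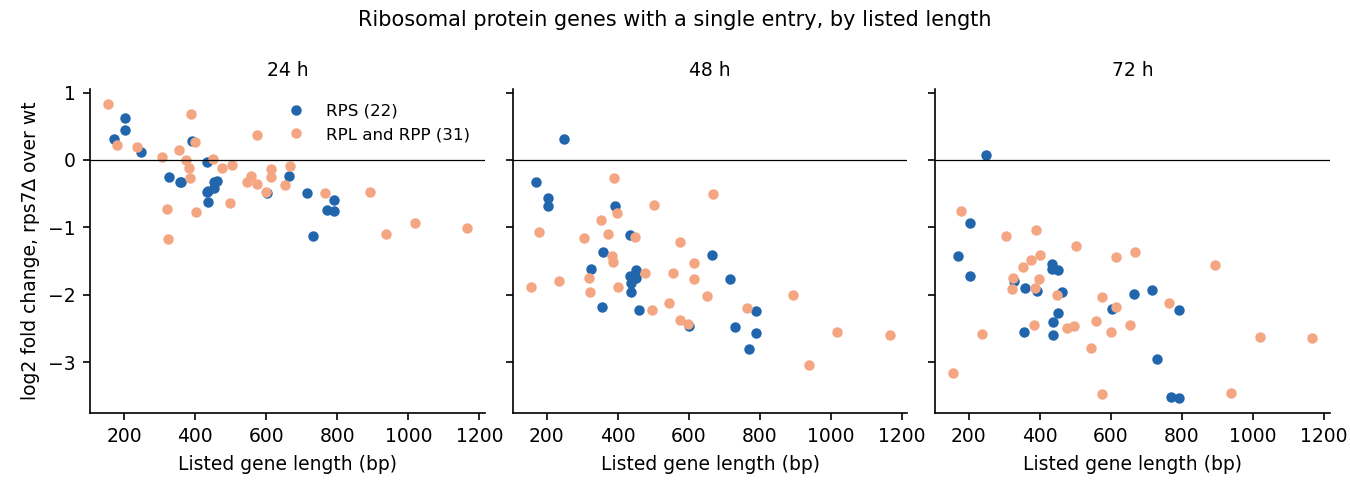
log2 fold change of *rps7*∆ over wt against the listed gene length in bp for the 53 RP genes with a single entry, 22 of the small subunit (blue) and 31 of the large subunit (orange), at 24, 48 and 72 h. Points fall further below 0 with length, most clearly at 24 and 48 h.

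*P. pastoris* keeps 9 pairs of RP paralogs, for which reads could be shared between the copies. Of the 18 copies 15 were lower on average, where 36.9% of all genes tested were. Under library size 12 were lower, where 17.9% of all genes were. Both copies were lower in 7 pairs, in *RPL2*, *RPL6*, *RPL8*, *RPL9*, *RPP1*, *RPS6* and *RPS22*. In *RPS28* the A copy was lower and the B copy was not called, and in *RPS27* neither was called. Under library size *RPL6B*, *RPS22A* and *RPS28A* lost their calls, which leaves 5 pairs with both copies lower, and *RPS27B* was higher at 0.64. *RPL9B* showed the steepest change with time of the 18 copies. It had 382 and 395 CPM in *rps7*∆ and 274 and 328 CPM in wt at 24 h, against 12.7 and 11.8 CPM in *rps7*∆ and 149 and 126 CPM in wt at 72 h. The log2 difference at 72 h minus that at 24 h was −3.84 (standard error 0.49), while it was −1.67 (standard error 0.22) for *RPL9A*. The *RPS6* copies differed by −2.01 (B) and −1.40 (A) on average, the *RPL6* copies by −1.20 (A) and −0.67 (B), and the *RPL8* copies by −2.01 (B) and −1.64 (A). The counts of *RPS6B*, *RPL6A* and *RPL8A* each came from a row that merged more than 1 gene entry, which limits these contrasts between copies.

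Chaperones help proteins fold, and the 55 genes of this list were listed by the study from these samples, so their direction is not independent evidence. On average 39 were lower in *rps7*∆ and 5 were higher, where 36.9% of all genes tested were lower and 41.0% higher. The median log2 fold change was −0.40, beside 0.05 over all genes. Under library size 19 were lower and 25 higher, where 17.9% of all genes were lower and 67.7% higher. The median was then 0.08, beside 0.53 over all genes. All 16 chaperone genes over 500 CPM fell, with a median of −0.83, beside −0.93 for other genes of that level. By time, 25 fell and 6 rose at 24 h, where 30% of all genes fell, 24 fell and 7 rose at 48 h, where 32.2% fell, and 34 fell and 7 rose at 72 h, where 32.6% fell. Under library size 17 were lower and 14 higher at 24 h, 5 lower and 38 higher at 48 h, and 28 lower and 17 higher at 72 h. At 48 h the measures of the list did not go the same way. Its median was −0.23, beside 0.05 over all genes tested, and 0.49 under library size, beside 0.77. The median thus lay below that of all genes on both scales, though its sign turned. The list's share of host gene reads was higher, at 5.06 and 5.21% in *rps7*∆, against 4.21 and 4.02% in wt. At 72 h the list was lower on each measure, with 2.06 and 2.06% of reads in *rps7*∆ and 4.67 and 4.40% in wt, and a median of −0.79 (−0.32 under library size).

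The files give these genes by ID only. The 3 lowest were Pipas_chr3_0731, Pipas_chr1-3_0102 and Pipas_chr3_0230, with averaged log2 fold changes of −2.29, −1.55 and −1.26. Pipas_chr3_0230 was the most abundant of the 6 chaperone genes named here. It had 10879 and 9515 CPM in *rps7*∆ and 16349.5 and 14811 CPM in wt at 24 h. At 72 h it had 2001 and 1969 CPM in *rps7*∆, against 11417 and 9839 CPM in wt, and the strains did not overlap at either time. The 3 highest were Pipas_chr1-1_0086 at 0.76, Pipas_chr2-1_0431 at 0.58 and Pipas_chr2-2_0057 at 0.46. The other 2 that rose were Pipas_chr2-1_0194 and Pipas_chr1-1_0237, named after their values were seen.

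The mRNA of the foreign gene Phy had 5335 and 4784 CPM in *rps7*∆ and 3096 and 3185 CPM in wt at 24 h. At 48 h it had 635 and 559 CPM in *rps7*∆, against 4082 and 3940 CPM in wt. At 72 h it had 1161 and 960 CPM in *rps7*∆, against 2900 and 2892 CPM in wt. The log2 difference was 0.69 at 24 h (adjusted p = 0.0071), −2.75 at 48 h (adjusted p = 9.7e-10) and −1.45 at 72 h (adjusted p = 4.4e-06), with the same signs under library size.

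A few genes without a name had almost no reads in one of the strains. Pipas_c131_0020 had 0 or 1 read in each *rps7*∆ library, 3 in all, against 158 to 342 reads in each wt library, 1513 in all. The ratio of wt to *rps7*∆ was 568, with a 95% interval of 194 to 2758 that covers counting error only. The other 3 deletion strains had 5.24 to 121 CPM of it, and *rps7*∆ differed from their mean by −8.83 on the log2 scale (adjusted p = 9.0e-17). The gene with the preceding ID had 0 reads in the 6 *rps7*∆ libraries and 27 to 71 in wt.

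The opposite was seen for Pipas_c157_0001 and Pipas_c157_0002. Pipas_c157_0002 had 357 to 863 reads in each *rps7*∆ library, against 1 or 2 in each wt library. Pipas_c157_0001 had 241 to 760 CPM in *rps7*∆ and 0.662 to 3.16 CPM in wt. Here wt stood apart from every deletion strain, since the other 3 had 210 to 910 CPM of Pipas_c157_0001, and *rps7*∆ differed from their mean by 0.02 on the log2 scale (standard error 0.07, adjusted p = 0.83). Those 3 strains had 30.6 to 745 CPM of Pipas_c157_0002, from whose mean *rps7*∆ differed by −0.80. The second gene by the rule for genes that fell was Pipas_chr1-4_0188, with 76.2 to 315 CPM in *rps7*∆ and 3580 to 4260 CPM in wt, an averaged log2 fold change of −4.74 (standard error 0.16). It was at a median of 240.1, 949.8 and 354 CPM in *rpl38*∆, *rpl9a*∆ and *rps25*∆.

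The genes with the IDs before and after *RPS7* were also lower in *rps7*∆. The preceding one had 2035 and 1997 CPM in *rps7*∆ and 3236 and 3792 CPM in wt at 24 h, and 241 and 240 CPM in *rps7*∆ and 2812 and 2620 CPM in wt at 72 h. Its averaged log2 fold change was −2.09 (standard error 0.08). The following one had 41.4 to 158 CPM in *rps7*∆ and 334 to 533 CPM in wt, with −2.64 (standard error 0.16). Of all genes tested, 1.63% lay at or below the first of these values and 0.765% at or below the second. The 18 other genes within 10 IDs had a median of 0.13, with 9 higher and 7 lower, and the lowest of them was the RP gene *RPL16* at −1.82. Against the mean of the other deletion strains the preceding gene differed by −1.44 and the following one by −1.20 on the log2 scale. The following gene was also low in *rpl38*∆, with a median of 35.9 CPM, below the 50.1 CPM of *rps7*∆. The positions of these genes relative to *RPS7* on the genome were not analysed here, and whether the counting used strand is not given in the sources.

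**Figure D5:**
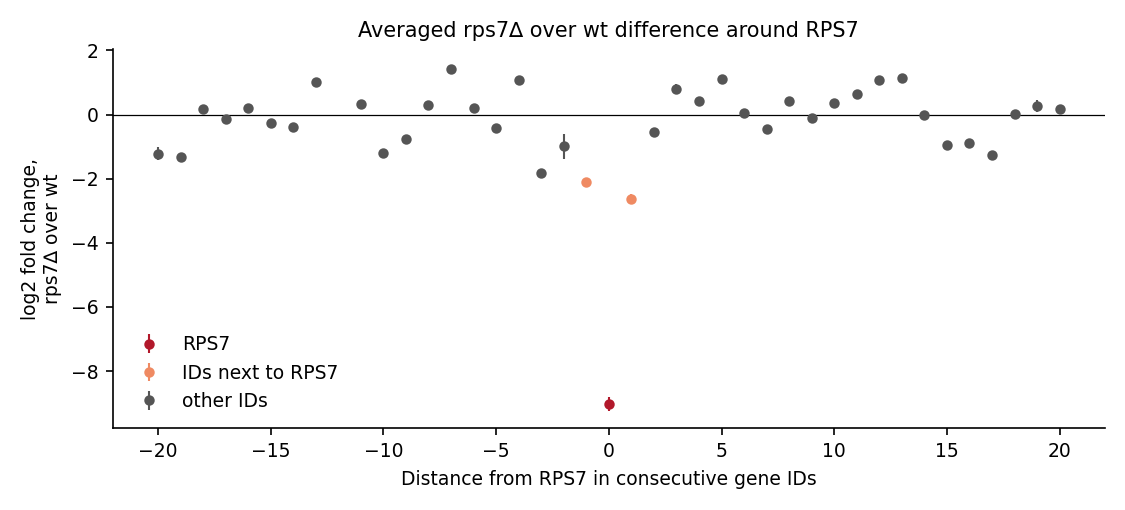
Averaged log2 fold change of *rps7*∆ over wt for the genes within 20 IDs of *RPS7*, by distance in consecutive IDs. Error bars are standard errors. *RPS7* lies at −9.02, its neighbours at −2.09 and −2.64, and the other genes between −1.82 and 1.41.

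Over the 7 parts that the IDs distinguish and that hold at least 100 tested genes, the median averaged log2 fold change ran from −0.02 to 0.14.

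The RP mRNA of *rps7*∆ was also lower than the mean of the other 3 deletion strains, whose RP lists were not compared strain by strain. Against the mean of *rpl38*∆, *rpl9a*∆ and *rps25*∆, a contrast without wt, 30 of 36 *RPS* and 44 of 49 *RPL* and *RPP* genes were lower in *rps7*∆, where 36.4% of all genes were, with medians of −0.80 and −0.87. Under library size 24 and 33 were lower, where 13.3% of all genes were. The medians were then −0.36 and −0.42, beside 0.45 over all genes. The RP genes that were higher in *rps7*∆ here (37.5% of all genes were) were *RPS25*, *RPL9A* and *RPL38*, each deleted in one of the other 3 strains, and *RPL22*. The chaperone list was divided, with 23 lower and 18 higher and a median of −0.09. This median was 0.35 under library size, beside 0.45 over all genes. Phy was lower by 3.15 on the log2 scale in *rps7*∆ (standard error 0.12).

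The RNC-mRNA, which is the mRNA pelleted with ribosome–nascent chain complexes, was sequenced for the same strains and times in 12 further libraries. Per the methods, each sample was divided for total RNA and for this fraction. Both readouts therefore rest on the same cultures, and the RNC-mRNA is not an independent replication. There 31 of 36 *RPS* and 47 of 49 *RPL* and *RPP* genes were lower in *rps7*∆ on average and 0 were higher, where 29.7% of all 5210 genes tested were lower and 32.0% higher. The medians were −1.83 and −1.82, or −1.04 and −1.03 under library size. At 24 h 2 *RPS* genes fell and 2 rose, where 20.5% of all genes fell and 18.5% rose, with a median of −0.37. At 72 h all 36 fell, where 23.5% of all genes did, with a median of −2.74. Under library size 30 fell at that time, where 9.94% of all genes did. Of the 32 *RPS* genes that were lower in mRNA 31 were also lower in RNC-mRNA, and of the 47 *RPL* and *RPP* genes 45 were. Over all genes, 71.3% of those lower and 66.3% of those higher in mRNA were called in the same direction in RNC-mRNA. *RPL22*, which had no call on average in mRNA, was lower in RNC-mRNA by 1.46 on the log2 scale.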

How the data were processed

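The deposited host gene files held raw read counts per gene and, beside them, RPKM values that the authors computed from the counts and the listed gene length, and which were not tested here. The deposited read counts on Phy came as a separate table and were added to each library. Libraries were prepared with NEBNext Ultra II and sequenced on an Illumina HiSeq X instrument. The processing notes name bcl2fastq 2.17, while aligner, counting tool, strand setting and build were not given in the sources used here. For 451 genes a row merged more than 1 entry, so listed lengths were used only for single-entry genes. None of the 5319 gene IDs matched the reference table, and gene names came from the study's own RP and chaperone tables, of which only names were used.

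Counts of the 30 mRNA libraries were fitted together in edgeR 4.0.16 (R 4.3.3) with TMM factors, 15 group means and the quasi-likelihood test, which kept 5229 genes (over 10 reads in 2 or more libraries). Adjusted p-values are Benjamini-Hochberg over all genes tested. Standard errors are the log2 fold change divided by the square root of its F statistic. The RNC-mRNA libraries were fitted in the same way (5210 genes). The p-values measure the spread between 2 cultures per group, pooled over all 15 groups, the other deletion strains included, and moderated across genes. Named genes were *RPS7* and the other deleted genes, Phy, the 3 highest and 3 lowest of each RP subunit and of the chaperones, the 9 paralog pairs, the 2 highest and 2 lowest other genes of at least 10 CPM with 1 sign at all times, and the IDs next to *RPS7*. The members and lists were chosen with earlier results of these data known. The test was tried on simulated data first. Alternatives were library size, DESeq2 1.42.0 and its size factors, other filters, other sets of libraries, a replicate block, a 2-fold criterion, TMM without RP genes and Phy, leaving out each library and, added after seeing the data, RP medians over single-entry genes.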

Additional observations from a re-analysis of the deposited data

Results flagged for a closer look

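The difference between *rps7*∆ and wt at 72 h minus that at 24 h was tested for the 44 named genes in edgeR, and it passed an adjusted p of 0.05 for 36 of them. It was below 0 for 35 of these. Of all genes tested, 25.7% became lower and 23.3% higher in the same comparison. Many of the 44 were RP genes or were picked by their averages, which include the 72 h values. All values in this section are on the log2 scale. In the small subunit the change with time was −3.0 for *RPS6B*, −2.93 for *RPS0*, −2.77 for *RPS1*, −2.23 for *RPS22A*, −2.16 for *RPS28A*, −1.83 for *RPS3*, −1.55 for *RPS28B*, −1.54 for *RPS25*, −1.45 for *RPS6A* and −0.59 for *RPS30*. In the large subunit it was −3.84 for *RPL9B*, −2.81 for *RPL7*, −2.78 for *RPL38*, −2.54 for *RPL8B*, −2.37 for *RPP0*, −2.22 for *RPL2B*, −1.80 for *RPL8A*, −1.73 for *RPL22*, −1.67 for *RPL9A*, −1.65 for *RPL37*, −1.63 for *RPL3* and −1.63 for *RPL2A*. The smaller changes of that subunit were −1.20 for *RPL6B*, −1.18 for *RPP1A*, −0.98 for *RPL29*, −0.67 for *RPL6A* and −0.57 for *RPP1B*.

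Outside the ribosome the change was −2.14 for Phy. It was −2.27 for the chaperone gene Pipas_chr1-3_0102, −1.81 for Pipas_chr3_0230 and −1.21 for Pipas_chr3_0731. Pipas_chr1-4_0188 changed by −2.03 and Pipas_c157_0001 by −1.63, where wt had 4 to 16 reads a library. The gene ID before *RPS7* changed by −2.70 and the one after it by −1.18.

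The single value above 0 was that of *RPS7* itself, 2.01 (adjusted p = 0.044), which rests on the 2 to 16 reads of each *rps7*∆ library.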

How the results depend on the processing

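Scaling decided most of what changed. Under library size alone, 3542 genes were higher and 934 lower on average, 1045 were lower at 24 h, 3696 were higher and 625 lower at 48 h, and 3011 were higher and 987 lower at 72 h. Against the other deletion strains 3728 were higher and 693 lower, and in RNC-mRNA 3759 and 514. The *RPS* median became −0.83 with 2 genes higher, and the *RPL* and *RPP* median −0.92 with 1 higher. The chaperone median turned to 0.080 with 25 higher and 19 lower, beside a median of 0.53 over all genes tested. The sign turned for *RPS28B* (0.18), *RPS30* (0.27), *RPL37* (0.20), *RPL22* (0.27) and *RPS27A* (0.15), and the calls of *RPL29*, *RPL6B*, *RPS22A* and *RPS28A* were lost. With a 2-fold criterion 433 genes were higher and 541 lower on average, 571 and 477 at 24 h, 610 and 662 at 48 h, 544 and 800 at 72 h, 220 and 304 against the other deletion strains, 1398 changed with time, and 0 chaperones were higher and 10 lower. With only the 12 *rps7*∆ and wt libraries 1 *RPS* gene (*RPS27B*) was higher, and *RPS28B*, *RPS27A*, *RPL37* and *RPL22* gained a call as lower. That fit gives no value against the other strains, and fits of the 4 libraries of a time give no average. Counts under all other alternatives were within 1.5 times.

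Leaving out a library gave 2061 to 2097 higher and 1871 to 1894 lower genes on average, the lone library left in a group being assumed to vary like the others. *RPS30* lost its call without either *rps7*∆ library of 24 h, *rps7*∆ replicate 1 of 48 h or replicate 2 of 72 h, or wt replicate 2 of any time, with values of −0.15 to −0.20 in edgeR. *RPL22* gained a call as lower without wt replicate 1 of 24 h (−0.28). Replicate numbers gave no steady pairing of *rps7*∆ with wt. Deviations of the 2 strains at the same number correlated at 0.22, 0.10 and −0.02 at 24, 48 and 72 h over 4101 genes. Pairing by number across the times within a strain was not tested, and the fits treat the times as independent. With a replicate block 2138 genes were higher and 1929 lower on average, and *RPS30* lost its call. Genes with under 50 CPM and the near-absent genes rest on few reads, which limits their fold changes.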
